A study of Mus musculus with 7 samples.

Results

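The cytosolic ribosome is built from a small and a large subunit, each an assembly of ribosomal RNA and many small basic proteins that are encoded by single-copy genes scattered over the genome. These genes are among the most strongly transcribed of any growing cell, their promoters are compact and mostly lack a canonical TATA box, and their mRNAs begin with a terminal oligopyrimidine (TOP) tract through which the mTOR pathway adjusts their translation. Blood stem cells are sensitive to the dose of single ribosomal proteins: loss of 1 copy of several of them causes Diamond-Blackfan anaemia in humans. The 48 genes described here are those whose symbol starts with Rpl or Rps and a digit, or is Rpsa, Rplp0, Rplp1 or Rplp2, without the Rps6k kinases and pseudogenes, out of 12393 genes measured. Only probe sets annotated to 1 gene were admitted, and each gene was represented by its probe set with the highest mean over 7 arrays, which left 20 genes of the small subunit, 20 of the large subunit, 2 of the P stalk and 6 paralogs.

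The 7 arrays measured haematopoietic stem cells from mouse fetal liver at embryonic day 14.5, sorted as lineage-negative, Sca-1-positive, c-Kit-positive and CD150-positive cells. Of these, 3 samples (TFIIA nc/nc) came from embryos homozygous for TFIIAα-βnc, a non-cleavable form of the large subunit of the general transcription factor TFIIA, and 4 from wild-type embryos. The embryos came from matings between heterozygotes. A sample held 1 to 4 embryos of 1 genotype, littermates where pooled, and each is labelled as a biological replicate. No strain is named. TFIIA nc/nc replicates 1 to 3 held 2, 2 and 4 embryos and wild-type replicates 1 to 4 held 1, 1, 4 and 3. TFIIA stabilises the TATA-binding protein TBP on promoters, and the comparison of the genotypes addresses which transcripts differ when its large subunit cannot be cleaved.

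Some annotated starts of the members carry the sequence features for which this family is known, and the 30 bases around the start of 6 genes are shown to make these visible. Sequences are from RefSeq on build GRCm38.p6, written 5′ to 3′ with 15 bases before and 15 from the start onward, and capitals mark the longest pyrimidine run. The first 5 lines were picked from the starts at a C followed by 4 pyrimidines, the form of a TOP mRNA, and the last is the paralog Rps27l, whose run lies before the start.
Rps6 (chr4:86857353-86857382, minus strand): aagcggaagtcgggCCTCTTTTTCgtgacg
Rps18 (chr17:33955651-33955680, minus strand): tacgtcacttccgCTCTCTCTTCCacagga
Rpl35 (chr2:39005117-39005146, minus strand): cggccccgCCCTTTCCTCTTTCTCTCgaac
Rpl38 (chr11:114668565-114668594, plus strand): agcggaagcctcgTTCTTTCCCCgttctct
Rplp2 (chr7:141447636-141447665, plus strand): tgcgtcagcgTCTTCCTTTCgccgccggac
Rps27l (chr9:66946071-66946100, plus strand): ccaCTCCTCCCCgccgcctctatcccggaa
RefSeq starts were found for 42 of the 48 genes, 50 starts in all. The features and the run length were set after these windows had been seen. A start at C followed by 4 pyrimidines was found at 8 of the 50, 16% against 2.51% of the 32851 starts of all genes. A run of at least 8 pyrimidines lay within 15 bases of 19 of the 50 starts, 38% against 12% of all. CCGGAA, searched on both strands in the 300 bases from 250 before to 50 after the start, was present at 28 of the 50 starts, 56% against 14.9% of all; it is the core bound by ETS factors such as GABP. TATAAA, searched on the coding strand between 40 and 15 bases before the start, was present at 1 of the 50 starts, 2% against 1.99% of all. That start belonged to Rpl22l1, the paralog of Rpl22, and the sequence with TATAAA in capitals, 28 bases before the start, is given because TFIIA acts with TBP.
Rpl22l1 (chr3:28805468-28805497, plus strand): agcacgtttttaTATAAAagcgtgcgtgcg
These matches describe letters in the annotated windows and do not show a bound factor or the start used in these cells.

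Arrays also differed within each genotype, and the part of genotype in these differences was not tested. The stem cell receptor gene Kit read 7.501 to 9.06 (log2 intensity) and Slamf1, which encodes CD150, 6.12 to 6.92, against array medians of 3.69 to 3.82, while the lineage genes Cd3e, Cd4 and Cd8a read 2.88 to 3.72. Ly6a, which encodes Sca-1, was not analysed here. The mean over 20 endothelial genes was 6.40 to 6.86 on 3 arrays (replicate 1 of each genotype and TFIIA nc/nc replicate 2), against 4.10 to 4.34 on the other 4. Lyve1, a marker of sinusoidal endothelium, read 9.597 to 9.83 on the same 3 arrays and 2.78 to 3.65 on the others. Gtf2a1, which encodes TFIIAα-β, differed by 1.14 (SE 0.50) between the genotypes and was not called (adjusted p = 0.934 in limma after Benjamini-Hochberg); a mutated cleavage site need not alter its level, so this does not check the labels. In bulk samples, fewer cells of a type and less RNA per cell cannot be told apart.

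Ribosomal protein transcripts gave closely similar signals in the 2 genotypes. None of the 48 genes passed an adjusted p of 0.05 in limma over all 12393 genes, where 1 gene, Galc, passed (0.00807%), and the smallest adjusted p among them was 0.934. Before adjustment, 0 of 48 had a limma p under 0.05, against 4.65% of all genes, 2.12% higher and 2.53% lower. A difference is the mean log2 intensity in TFIIA nc/nc less that in wild type, given with its standard error (SE). They ran from −0.32 for Rpl37 to 0.29 for Rps25, with 30 genes lower and 18 higher in TFIIA nc/nc and a median of −0.05. Over all genes 51.9% were lower and the median was −0.0099. Among the 226 genes with a mean log2 level of at least 10, a value chosen after seeing the data, 39.8% were lower. Of the 36 members among them 23 were lower, with a median of −0.06 and differences of −0.27 to 0.28. Rpl37 and Rps25 lay below that level. The other 190 genes of the 226 had a median of 0.07.

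The precision of these comparisons was high for the family. The 95% interval of the difference (limma, for each gene alone) lay within a 2-fold change for 47 of the 48 genes, against 92% of all genes, and within a 1.5-fold change for 39, against 52.1% of all. The gene outside the 2-fold bound was Rpl27a, at −1.24 to 1.14. Brightness alone goes with narrower intervals: for genes with a mean of at least 10, the share within 2-fold was 98.2% and within 1.5-fold 76.1%, and of the 36 members there 36 and 32 met these bounds. No interval of these 36 reached beyond 0.793 in either direction. These 36 genes each gave a signal above that of at least 98.3% of genes in wild type, and the highest reading among the members, 13.4 to 13.7, was the highest of all genes on every array except wild-type replicate 2. Array signals can be compressed near the top of the scale, and the effect of this on the differences was not tested.

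**Figure D1:**
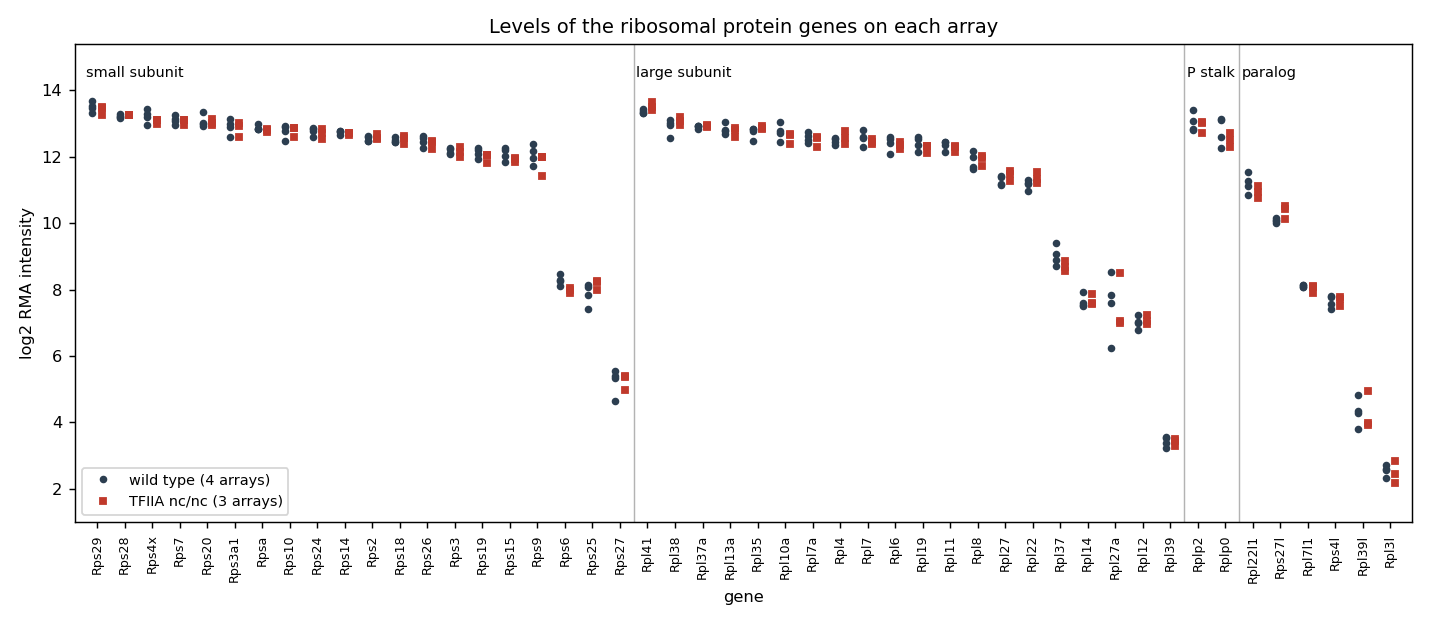
Log2 RMA intensity (vertical axis) of each of the 48 ribosomal protein genes (horizontal axis, grouped by subunit) on the 4 wild-type arrays (dark circles) and the 3 TFIIA nc/nc arrays (red squares). Most genes lie between 11 and 13.7 and the ranges of both genotypes overlap for every gene except Rps6; Rps27, Rpl39, Rpl39l and Rpl3l lie below 6.

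**Figure D2:**
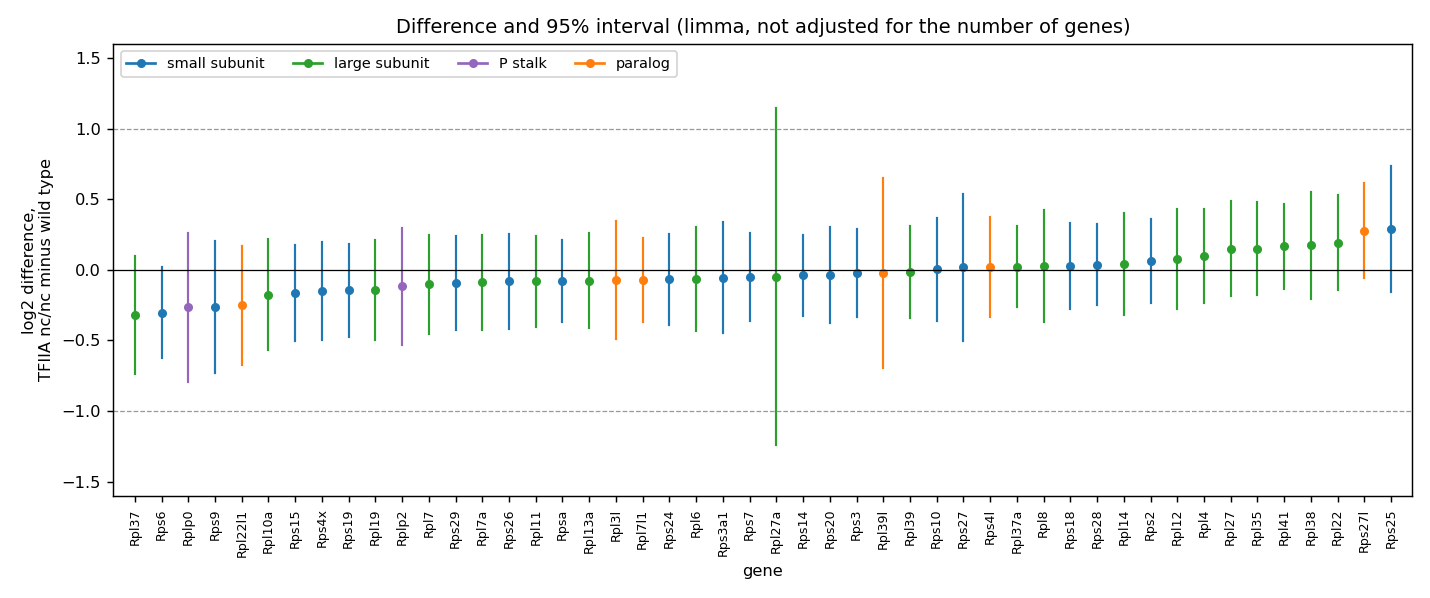
Difference between TFIIA nc/nc and wild type on the log2 scale with its 95% limma interval for each of the 48 genes, ordered by the difference and coloured by class; dashed lines mark a 2-fold change. Every interval includes 0, and only that of Rpl27a crosses the dashed lines.

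Among the 20 small-subunit genes 14 were lower and 6 higher, with a median of −0.05. Rps6 encodes the 40S protein that S6 kinase phosphorylates downstream of mTOR. It read 7.90, 7.98 and 8.05 in TFIIA nc/nc and 8.10, 8.25, 8.30 and 8.47 in wild type. All 3 TFIIA nc/nc values lay below all 4 wild-type values, and Rps6 was the only member whose groups did not overlap, 1 of 48 against 6.3% of all genes in either direction and 3.07% in this one. Its mean was 7.98 ± 0.08 (SD, n = 3) against 8.28 ± 0.15 (SD, n = 4), a difference of −0.30 (SE 0.14; limma, Benjamini-Hochberg adjusted p = 0.934). The other Rps6 probe set gave 0.42 in the opposite direction (p = 0.114, exact permutation test). It was dim, with means of 2.33 in wild type and 2.75 in TFIIA nc/nc, below the array medians of 3.69 to 3.82. The direction of Rps6 thus rests on 1 probe set.

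Rps25, a 40S protein used by some viral entry sites for initiation, had the highest positive difference of the small subunit. It read 8.23, 7.98 and 8.26 in TFIIA nc/nc and 8.14, 8.08, 7.83 and 7.41 in wild type. The groups overlapped, and wild-type replicate 4 was low. The difference was 0.29 (SE 0.20; limma adjusted p = 0.934).

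Rps9, Rps15 and Rps19 had lower means in TFIIA nc/nc. Rps9 differed by −0.26 (SE 0.21), with TFIIA nc/nc values of 11.42, 11.99 and 11.99 and wild-type values of 11.74 to 12.37. TFIIA nc/nc replicate 1 was its lowest array. Its other sets gave −0.54 and, for a dimmer one at 5.55 among the wild-type arrays, 0.14 (p = 0.314 and 0.4, exact permutation tests). Rps15, needed for export of the pre-40S particle from the nucleus, differed by −0.16 (SE 0.15). Rps19, the gene most often mutated in Diamond-Blackfan anaemia, differed by −0.15 (SE 0.15), with 11.8 to 12.1 in TFIIA nc/nc and 11.9 to 12.3 in wild type. The groups overlapped in each of the 3 genes, and none passed (limma adjusted p of at least 0.934).

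The other small-subunit genes, apart from the X-linked Rps4x described with the X-linked members, lay closer to 0. Rps2, at the mRNA entry site of the 40S subunit, differed by 0.06 and Rps14, whose human counterpart is lost in the 5q- syndrome, by −0.04. Rps14 read 12.6 to 12.7 in TFIIA nc/nc and 12.7 to 12.8 in wild type, with a 95% interval of −0.33 to 0.25. Rps28 had the smallest within-genotype SD of the family, 0.0467, with 13.26 to 13.27 in TFIIA nc/nc and 13.16 to 13.30 in wild type. Rpsa, the laminin receptor homologue of the 40S subunit, Rps26, Rps24 and Rps29 differed by −0.07 to −0.09. Rps3a1, Rps7, Rps20 and Rps3 differed by −0.02 to −0.06, and Rps10, Rps18, Rps27 and Rps28 by 0.0047 to 0.04.

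The 20 large-subunit genes were evenly split, 10 higher and 10 lower, with a median of 0.0031. Rpl37 had the lowest difference of the family, −0.32 (SE 0.19; limma adjusted p = 0.934). It read 8.56, 8.67 and 8.87 in TFIIA nc/nc and 8.90, 8.71, 9.40 and 9.06 in wild type. Wild-type replicate 2 lay within the TFIIA nc/nc range, and the other 3 wild-type arrays lay above it. Rpl10a, a protein of the L1 stalk, differed by −0.18 (SE 0.17) and Rpl19, which forms a bridge between the subunits, by −0.14 (SE 0.16). Rpl7 and Rpl7a, both of them bound to ribosomal RNA of the large subunit, differed by −0.10 and −0.09, and Rpl13a and Rpl6 by −0.08 and −0.06.

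On the higher side no large-subunit gene differed by more than 0.19. Rpl22 read 11.22, 11.53 and 11.32 in TFIIA nc/nc and 11.18, 10.96, 11.29 and 11.22 in wild type, a difference of 0.19 (SE 0.15). Its groups overlapped, and a weaker probe set of the gene, 7.52 on average in wild type, gave −0.22 (p = 0.229, exact permutation test). Rpl41, which encodes a very short basic peptide, differed by 0.17 (SE 0.13) and Rpl38, required for translation of a set of Hox mRNAs in the mouse embryo, by 0.17 (SE 0.17). Rpl35 and Rpl27 each differed by 0.15 (SE 0.15). Rpl4, whose long extension lines the exit tunnel, and Rpl12 differed by 0.10 and 0.08. For Rpl35 and Rpl38 wild-type replicate 3 was low, at 12.46 and 12.55, where the other wild-type arrays read 12.77 to 12.83 for Rpl35 and 12.95 to 13.12 for Rpl38. Rpl37a, Rpl8 and Rpl14 differed by 0.02, 0.03 and 0.04.

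Rpl11, which with Rpl5 and 5S RNA forms the particle that binds Mdm2 and stabilises p53 when ribosome assembly fails, was nearly equal in the genotypes. It read 12.15, 12.30 and 12.34 in TFIIA nc/nc and 12.13, 12.36, 12.43 and 12.44 in wild type. The groups overlapped, and the difference was −0.08 (SE 0.14) with a 95% interval of −0.40 to 0.24. Rpl5 was not analysed here.

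The P stalk, made of Rplp0 and the acidic proteins Rplp1 and Rplp2, recruits the elongation factors. Rplp0, the anchor of the stalk, read 12.29, 12.71 and 12.51 in TFIIA nc/nc and 12.26, 12.58, 13.10 and 13.14 in wild type. Wild-type replicates 3 and 4 were high, replicate 2 lay within the TFIIA nc/nc range and replicate 1 just below it. The difference was −0.27 (SE 0.23; limma adjusted p = 0.934). Rplp2 differed by −0.12 (SE 0.18), with 12.70 to 13.03 in TFIIA nc/nc and 12.80 to 13.40 in wild type. Rplp1 was not analysed here.

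The 6 paralogs and relatives of ribosomal proteins included the member with the smallest p on the higher side. Rps27l, a close relative of Rps27 that p53 induces, read 10.11, 10.44 and 10.52 in TFIIA nc/nc and 10.09, 10.14, 10.004 and 10.07 in wild type. TFIIA nc/nc replicates 2 and 3 lay above every wild-type array, and replicate 1 lay within the wild-type range. The difference was 0.28 (SE 0.15; limma adjusted p = 0.934), with a mean of 10.4 ± 0.22 (SD, n = 3) against 10.1 ± 0.06 (SD, n = 4). Its other probe sets differed by 0.35 and 0.30 in the same direction (exact permutation p = 0.0571 for each). Probe sets of 1 gene read the same RNA, so the 3 are not independent. Rps27 itself, by a probe set of 5.23 in wild type, differed by 0.02 (SE 0.23).

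Rpl22l1 can take the place of Rpl22 in the ribosome, and Rpl22 protein represses it. Rpl22l1 read 10.77, 10.93 and 11.11 in TFIIA nc/nc and 10.84, 11.12, 11.26 and 11.53 in wild type, a difference of −0.25 (SE 0.19; limma adjusted p = 0.934), where Rpl22 differed by 0.19. The log2 signal of Rpl22l1 minus that of Rpl22 was −0.45, −0.60 and −0.21 in TFIIA nc/nc and −0.34, 0.16, −0.03 and 0.31 in wild type. Only wild-type replicate 1 lay within the TFIIA nc/nc range. The difference of −0.44 between the genotypes did not pass (exact permutation p = 0.0857, 0.214 after Benjamini-Hochberg over 5 paralog pairs, a test chosen after seeing the data). With the weaker Rpl22 probe set Rpl22 differed in the opposite direction, so this contrast rests on the choice of probe set.

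The other pairs gave smaller contrasts. Rps4l minus Rps4x differed by 0.17 between the genotypes (exact permutation p = 0.0857, adjusted 0.214) and Rps27l minus Rps27 by 0.26 (exact permutation p = 0.314, adjusted 0.524). Rpl7l1 minus Rpl7 and Rpl39l minus Rpl39 differed by 0.03 and −0.0060. Rpl39 read only 3.42 in wild type, below the array medians of 3.69 to 3.82, and Rps27 read 5.23. The contrasts with Rpl39 and Rps27 thus have a dim partner. Rpl3l, a paralog typical of striated muscle, and Rpl39l, typical of the testis, were dim, with wild-type means of 2.55 and 4.31, and their differences were −0.07 and −0.02. Rps4l and Rpl7l1, at 7.64 and 8.11, differed by 0.02 and −0.07.

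**Figure D3:**
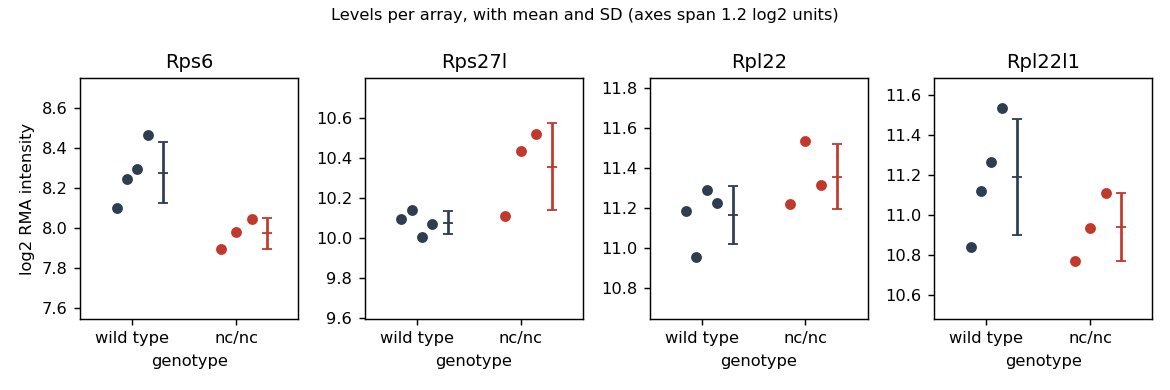
Log2 RMA intensity of Rps6, Rps27l, Rpl22 and Rpl22l1 on each array by genotype, with mean and SD beside the points; each vertical axis spans 1.2 log2 units. Only in Rps6 do the wild-type points, from 8.10 upward, all lie above the TFIIA nc/nc points, which end at 8.05.

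Rps4x and Rpl39 are the X-linked members, and the arrays differed in Y-linked against Xist signal. The mean log2 of Y-linked genes less that of Xist was −9.85, −6.93 and −4.51 in TFIIA nc/nc. In wild type it was 0.52, 1.21, −7.11 and −4.83, so only the wild-type samples of single embryos had more Y-linked than Xist signal. Rps4x read 12.98, 13.11 and 13.11 in TFIIA nc/nc and 12.95, 13.21, 13.28 and 13.43 in wild type, a difference of −0.15 (SE 0.15). Rpl39 differed by −0.02 (SE 0.14) by a probe set that read only 3.42 in wild type. Neither passed when that signal entered the fit as a term. Of the 22 listed genes whose human counterparts are mutated in Diamond-Blackfan anaemia, 13 were measured. Of these 6 were higher and 7 lower, with a median of −0.04 and differences of −0.15 to 0.15.

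The members varied together from array to array, and some other genes of translation varied with them. On each array the median deviation of the 36 brighter members from their own means was −0.15, 0.03 and 0.03 for TFIIA nc/nc replicates 1 to 3 and −0.14, 0.01, 0.08 and 0.14 for wild-type replicates 1 to 4. TFIIA nc/nc replicate 1 and wild-type replicate 1 were thus the low arrays of their groups. In counts made after seeing this, they were the 2 lowest arrays for 22 of the 36 genes, and wild-type replicate 4 was the highest array for 19. Kit was also lowest on these 2 arrays, at 7.501 and 7.61, and highest on wild-type replicate 4, at 9.06. Slamf1, the other measured gene of the sort, did not follow this order. It read 6.51 and 6.22 on the 2 low arrays and 6.50 on wild-type replicate 4, and was lowest, at 6.12, on wild-type replicate 3. Both low arrays had high endothelial transcripts, as had TFIIA nc/nc replicate 2, on which 26 of the 36 genes lay above their own mean. The part of Kit and of endothelial RNA in these levels was not tested. With the endothelial mean as a term of the fit the median difference of the 48 genes was −0.0062. With the 4 arrays of low endothelial transcripts alone it was −0.05, a value that rests on 1 TFIIA nc/nc sample. On TFIIA nc/nc replicate 1 and wild-type replicates 1 and 4, 11 factors of TOP mRNAs deviated by −0.18, −0.17 and 0.18. Initiation factors (26 genes) gave −0.13, −0.13 and 0.13, and the 190 other genes with a mean of at least 10 gave −0.03, −0.10 and 0.13. Ribosome assembly factors gave 0.07, −0.13 and 0.0038, and mitochondrial ribosomal proteins −0.01, −0.04 and −0.02. Some lists thus shared the pattern, which was not particular to the family.

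**Figure D4:**
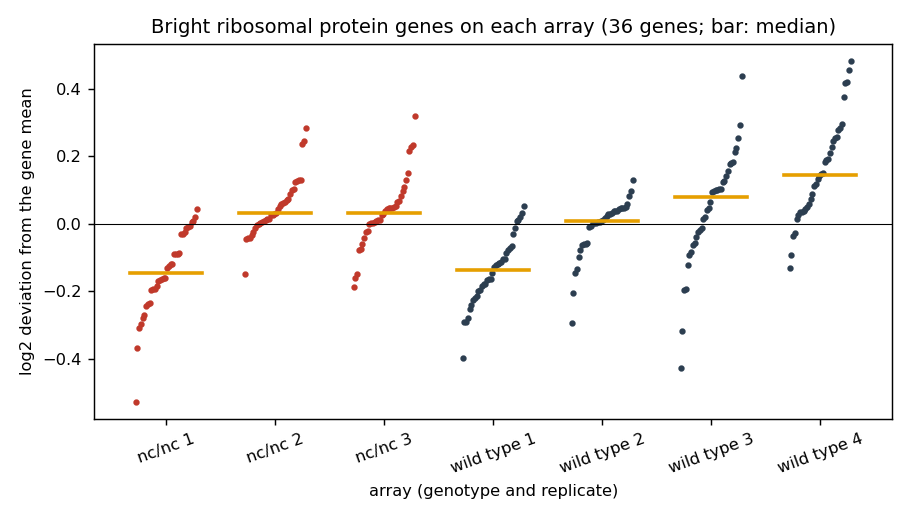
Log2 deviation of each of the 36 ribosomal protein genes with a mean of at least 10 from its own mean over the 7 arrays, sorted within each array; red points are TFIIA nc/nc, dark points wild type, and the bar is the median of the array. The medians are −0.15 on TFIIA nc/nc replicate 1 and −0.14 on wild-type replicate 1, and 0.01 to 0.14 on the other 5 arrays.

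Within a genotype the brighter members had a median SD of 0.149, where 190 other genes with a mean of at least 10 had 0.181. The array medians were 12.39 to 12.75 for these members and 10.47 to 10.74 for the other genes. The SDs are thus not compared at like brightness. Rpl27a was the exception of the family, with a within-genotype SD of 0.918. It read 8.50, 6.996 and 7.04 in TFIIA nc/nc and 8.54, 7.84, 7.60 and 6.25 in wild type. It was highest on TFIIA nc/nc replicate 1 and wild-type replicate 1, the arrays on which the brighter members were low. Its only other probe set was dim, at 2.75 in wild type.

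When the 2 wild-type samples of single embryos were left out, more members reached an unadjusted p under 0.05. Those samples were also the only ones with more Y-linked than Xist signal. Against wild-type replicates 3 and 4 alone, Rplp0 differed by −0.62 (SE 0.18), Rpl37 by −0.53, Rpl22l1 by −0.46, Rps6 by −0.41 and Rps25 by 0.54. These 5 are 10.4% of the 48 genes, where 11.8% of all genes reached that level with these arrays. None passed over all genes, with adjusted p of at least 0.285 in limma. The median difference of the family was then −0.13.

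Many ribosomal protein genes have processed pseudogenes of nearly the same sequence, and this limits what a probe set can be assigned to. The 48 genes had 52 further probe sets naming them alone, of which 35 differed in the same direction as the chosen one, and the smallest exact permutation p among the 52 was 0.0571. Another 102 probe sets listed a ribosomal protein gene together with other genes and named 44 such genes, 30 of them not among the 48. In a summary added after seeing the data, 66 of the 102 (64.7%) were lower and 36 higher, against 51.9% lower among all probe sets. The median of the 102 was −0.04. Of all 100 probe sets naming 1 of the 48 genes alone, 54 were lower and 46 higher, with a median of −0.02. None of the 102 passed (limma, Benjamini-Hochberg over 22626 probe sets), and 3 of them, 2 higher and 1 lower, had an unadjusted p under 0.05, 2.94% against 4% of all probe sets. They were bright as well, with 78 of 102 at a mean of at least 10.

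Other genes of translation were set beside the family. Of elongation factors and other mRNAs with a TOP tract, 11 were measured: of these, 7 were lower and 4 higher, with a median of −0.04, which turned to 0.03 with the endothelial mean as a term of the fit. Tpt1, an abundant TOP mRNA, differed by −0.34 (SE 0.15), the elongation factor Eef2 by −0.24 and the initiation subunit Eif3f by −0.19. Tpt1 was the only gene of the 11 whose groups did not overlap, where 3.07% of all genes were lower without overlap. It was also the only gene of the 11 with an unadjusted limma p under 0.05, against 2.53% of all genes in this direction. None passed in limma over all genes. Of 26 initiation factors 16 were higher, where 48.1% of all genes were, with a median of 0.04. All 26 had a log2 of at least 6 on at least 3 arrays, and the 4137 genes that met this filter had a median of 0.05. The initiation factors were led by Eif2s2 at 0.30, Eif3a at 0.45 and Eif1a at 0.35. Their median turned to −0.15 with only the arrays of pooled embryos. Fau, which encodes the ribosomal protein S30 fused to a ubiquitin-like protein and does not meet the naming rule, differed by −0.03.

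Ribosome assembly factors, which process ribosomal RNA and build the subunits, mostly had higher means in TFIIA nc/nc, though no single gene passed. Of 50 measured factors 43 were higher and 7 lower, against 48.1% of all genes with a higher mean. The median difference was 0.22 against −0.05 for the ribosomal proteins. Array medians were 6.94 to 7.35 for these factors and 12.2 to 12.57 for the ribosomal proteins. The median differences are thus not compared at like brightness. All 50 factors were read on the same 7 samples, so they are not independent. Among genes with a log2 of at least 6 on at least 3 arrays the median difference of the factors was 0.23, where all 4137 such genes had 0.05. In 13 of the 50 factors all 3 TFIIA nc/nc arrays lay above all wild-type arrays, 26% of the list against 3.23% of all genes. An unadjusted limma p under 0.05 was found for 8, all of them higher, against 2.12% of all genes, and none passed over all genes (smallest adjusted p = 0.934). Lyar, a nucleolar protein of pre-ribosomal RNA processing, read 8.24, 8.36 and 8.36 in TFIIA nc/nc and 7.90, 8.01, 7.67 and 7.86 in wild type, a difference of 0.46 (SE 0.14). Its groups did not overlap. Rpf2, which brings the 5S particle into the large subunit, differed by 0.48 (SE 0.15) and Wdr75, of the small-subunit processome, by 0.49 (SE 0.16), again without overlap. Nle1 and Bop1 went the other way, at −0.54 and −0.40, and their groups overlapped; both were chosen after their values were seen. On single arrays the median deviation of the list was 0.07, 0.10 and 0.17 in TFIIA nc/nc and −0.13, −0.06, −0.16 and 0.0038 in wild type. With the 4 arrays of low endothelial transcripts the median was 0.24, with 40 of 50 higher, but the TFIIA nc/nc side is then replicate 3 alone, the array with the highest deviation of the list. The marker lists of blood stem cells and of granulocytes and monocytes also had groups that did not overlap, and are given for that reason. The mean over 7 blood stem cell genes was 6.65, 6.76 and 6.74 in TFIIA nc/nc and 6.78 to 6.92 in wild type, and that over 6 granulocyte and monocyte genes was 4.31, 4.30 and 4.23 against 4.36 to 4.76. The gap in the blood stem cell list was narrow, 6.76 against 6.78. The groups overlapped for markers of the stem cell sort, lineage cells, endothelium, hepatocytes, macrophages, erythroid cells and megakaryocytes. The part of the stem cell and granulocyte lists in the assembly factor levels was not tested.

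Genes of RNA polymerase I, which transcribes the large ribosomal RNAs, and of the mitochondrial ribosome were less uniform. Of 13 polymerase I genes 8 were higher, where 48.1% of all genes were. Their median of 0.07 turned to −0.09 with the arrays of pooled embryos only. Of the 6 with a log2 of at least 6 on at least 3 arrays, 3 were higher. The median of these 6 was 0.0021, where all 4137 such genes had 0.05. Polr1b and Taf1a, dim at 4.14 and 3.87 in wild type, differed by 0.50 and 0.53. Rrn3, the factor that couples growth signals to polymerase I, differed by 0.25. Of 74 mitochondrial ribosomal proteins 53 were higher, against the same 48.1%, with a median of 0.06. They were led by Mrpl17 at 0.31, Mrps23 at 0.29 and Mrpl47 at 0.43. Among genes with a log2 of at least 6 on at least 3 arrays their median was 0.07, where all 4137 such genes had 0.05. Of 12 genes that signal to translation 7 were higher. Mycn, a driver of ribosome synthesis expressed in stem cells, differed by −0.45, the kinase Mtor by 0.29 and Myc by 0.22. Groups without overlap were found for 5 of the 74 mitochondrial genes, all higher, where 3.23% of all genes were, and for 1 of the 12 signalling genes, lower, where 3.07% of all genes were. The latter was the mTOR subunit gene Mlst8, which was chosen after its values were seen. None of the genes of these 3 lists passed in limma over all genes, and none had an unadjusted p under 0.05.

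**Figure D5:**
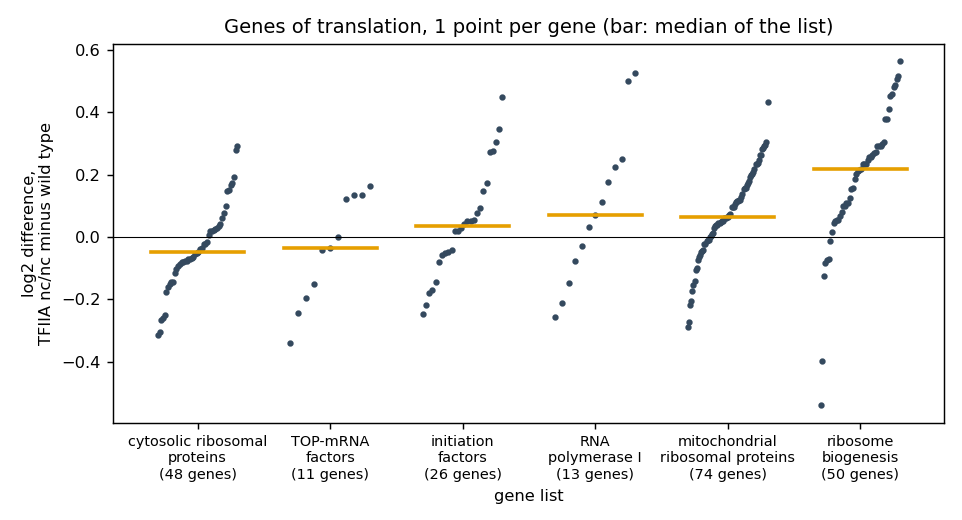
Log2 difference between TFIIA nc/nc and wild type for the genes of 6 lists of translation, 1 point per gene sorted within its list, with the median of the list as a bar. The medians are −0.05 for cytosolic ribosomal proteins and 0.22 for ribosome biogenesis factors, and most points of the latter lie above 0. These lists differ in signal level and are not compared at like brightness.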

How the data were processed

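RNA of double-sorted cells was amplified from the 3' end and hybridised to 1 Affymetrix array per sample, per the labels' protocols. The authors deposited RMA intensity values; the submitters' processing notes name Affymetrix Expression Console and RMA, without versions. The deposited values lie on a linear scale, so their log2 was taken, without a pseudocount. RMA brings arrays to similar distributions. Detection calls and scan batches were not used here. Of 22690 probe sets, 64 controls were left out; 20380 of the others named 1 gene, 691 several and 1555 none. Symbols came from the platform annotation, updated by Entrez identifier with RefSeq on GRCm38.p6, which matched all 48 members. A linear model of genotype (lmFit, then eBayes; limma 3.58.1, R 4.3.3) was fitted to 12393 genes on all 7 arrays, 2-sided, with Benjamini-Hochberg adjustment and a threshold of 0.05. For single values the 35 assignments of arrays to genotypes gave an exact 2-sided permutation p of at least 0.0286. The fit was tested on simulated data. Precision is limited by the number of arrays, and p-values measure the spread between these samples.

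The members and gene lists were chosen with earlier results of these data known. Genes named were the 10 of smallest p in each direction, the P stalk, Rpl11, the paralogs with their partners and X-linked members, and the 3 of smallest p in the other lists; further members are given by their differences. Alternatives covered the probe set, its suffix, a filter on dim genes, normalization, moderation, embryos pooled, endothelial and sex measures, the replicate number, the threshold and each array left out.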

Additional observations from a re-analysis of the deposited data

Results flagged for a closer look

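Rpl35 in wild-type replicate 3 read 12.46, where the other 3 wild-type arrays read 12.77 to 12.83, a gap wide enough to set it apart. Of the 29 members named by the rule and tested this way among the 4 wild-type arrays, it was the only one, and chance flags about 1 in 20 groups. Of the 5 other Rpl35 probe sets, 3 read 11.71, 12.05 and 2.78 on that array, inside the range of the other wild-type arrays, and the other 2 read 12.65 and 12.28, the lowest of the 4 arrays in each case.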

How the results depend on the processing

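None of the 48 ribosomal protein genes passed under any alternative, and the smallest adjusted p of a named member was 0.285. The number lower in TFIIA nc/nc was 23 to 34 and the median difference −0.13 to 0.0020, the highest with arrays centred on the family's own median, which sets it near 0 by construction. Without TFIIA nc/nc replicate 1 it was 0.0016. The median over ribosome biogenesis factors was 0.146 to 0.268. Of the 29 named members 17 kept their direction under every alternative in which they were measured.

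Directions turned for 12 named members, with another choice of probe set also for Rps6, Rps9 and Rpl22, whose differences were among the larger ones. Taking the probe set with the widest interquartile range, Rpl22 was −0.22, Rpl35 −0.011 and Rps6 0.42; with the mean of all probe sets Rpl22 was −0.0147 and Rps6 0.0562; without probe sets of shared suffix Rpl35 was −0.0895 and Rps9 0.14. Quantile normalization gave −0.0172 for Rps27, cyclic loess −0.0128 for Rps4l and 0.00251 for Rpl39, and centring on array medians −0.0041 for Rps4l and −0.0058 for Rps27. Relative to the family's median Rpl39l was 0.0288 and Rpl39 0.0348. With embryo number in the fit Rpl39l was 0.0514 and Rps4l −0.0249; with pooled embryos only Rps2 was −0.0058, Rpl39l 0.22 and Rps4l −0.13. With the endothelial mean Rpl39 was 0.0525 and Rps27 −0.0474, with low endothelial arrays Rpl39 was 0.000502, and with the sex measure Rpl39l was 0.16 and Rps4l −0.0668. Arrays with the same replicate number correlated in their deviations from the group means at 0.38, −0.19 and 0.11, so the numbers were not taken to pair the samples. With the replicate number as a block, Rplp2 was 0.0079 and Rps27 −0.18, the family's median was −0.03 and 0 members passed. Leaving out 1 array at a time gave −4.9e-05 to 0.15 for Rpl12, −0.0793 to 0.0463 for Rpl39, −0.36 to 0.16 for Rpl39l, −0.25 to 0.0882 for Rpl3l, −0.19 to 0.0079 for Rplp2, −0.18 to 0.16 for Rps27 and −0.0572 to 0.105 for Rps4l. Beyond the probe sets and arrays that differ by construction, the cause was not tested. The spread pooled over all probe sets, the sets listing several genes and the brighter members alone, added after seeing the data, gave medians of −0.05, −0.04 and −0.06.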
